A study of Sus scrofa with 21 samples.

Results

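The genes described here are 10 genes of the T cell surface: CD3D, CD3E, CD3G, CD247, CD4, CD8A, CD8B, CD2, CD5 and CD6. They were measured by the array probes that carry one of these symbols as gene name in the scanner files, with upper and lower case treated alike, and the values are those of the deposited log2 matrix. Of the 10 genes, 9 had a probe. They were read by 23 of the 60305 probes of the array, each 60 bases long, with 20 distinct sequences among them. All 23 probes stayed in when the 25% of probes with the lowest mean were removed, and the 9 genes stood among 33326 gene names tested. CD6 had no probe under its symbol and was not analysed here.

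The values come from whole blood of 21 pigs at 60 days of age, one array per pig, which were fed the same standard diet ad libitum. The DD pigs (10 pigs of 5 litters) belong to SLAdd, an inbred minipig line held homozygous at the swine leukocyte antigen locus, and the LW pigs (11 pigs of 6 litters) are Large White controls. Each group is a single line or breed, so the SLA haplotype and the rest of the genetic background cannot be told apart. The arrays lay on 3 chips. Chip 1 held 3 DD and 4 LW pigs, chip 2 held 4 of each breed and chip 3 held 3 of each.

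T cells recognise antigen through the T cell receptor, whose antigen-binding chains have almost no cytoplasmic part of their own. The signal is carried by the invariant CD3 gamma, delta and epsilon chains and by the CD247 zeta chain, which bear tyrosine motifs called ITAMs. CD4 and CD8 are coreceptors that bind the swine leukocyte antigen molecule presenting the antigen, whereas CD2, CD5 and CD6 are shared accessory molecules of adhesion and of signal tuning. In pig blood, CD8 is also found on natural killer cells and on activated helper T cells. The levels below are from whole blood RNA, in which fewer T cells and less RNA per T cell cannot be told apart.

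The mean of all 9 measured genes was lower in DD than in LW pigs, and 4 of them passed the adjusted p threshold of 0.05: CD3D, CD3G, CD247 and CD8A. None of the 9 passed in the other direction, and 6 of them had an unadjusted p below 0.05. Over all gene names tested, 9.63% were called lower and 11.5% higher in DD pigs, 21.1% in either direction, and 36.7% had an unadjusted p below 0.05. The median log2 fold change (FC, DD minus LW) was −0.58 over the 9 genes and −0.043 over all gene names, of which 54.9% had a log2 FC below 0. The breeds overlapped for each of the 9 genes, and values of the breeds did not overlap for 0.375% of all gene names. All 9 log2 FC stayed below 0 under each of the other settings, but the number of calls did not hold. When array brightness (the upper quartile of the signal of an array) entered the limma model, 0 of the 9 genes and 2.14% of all gene names were called (1 of the 9 and 11.7% at an unadjusted p below 0.05). Without chip 3, limma called 0 of the 9 genes and 1.52% of all gene names (4 of the 9 and 12.4% at an unadjusted p below 0.05), with log2 FC of −0.54 for CD3D, −0.53 for CD3G, −0.72 for CD247 and −0.45 for CD8A.

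**Figure D1:**
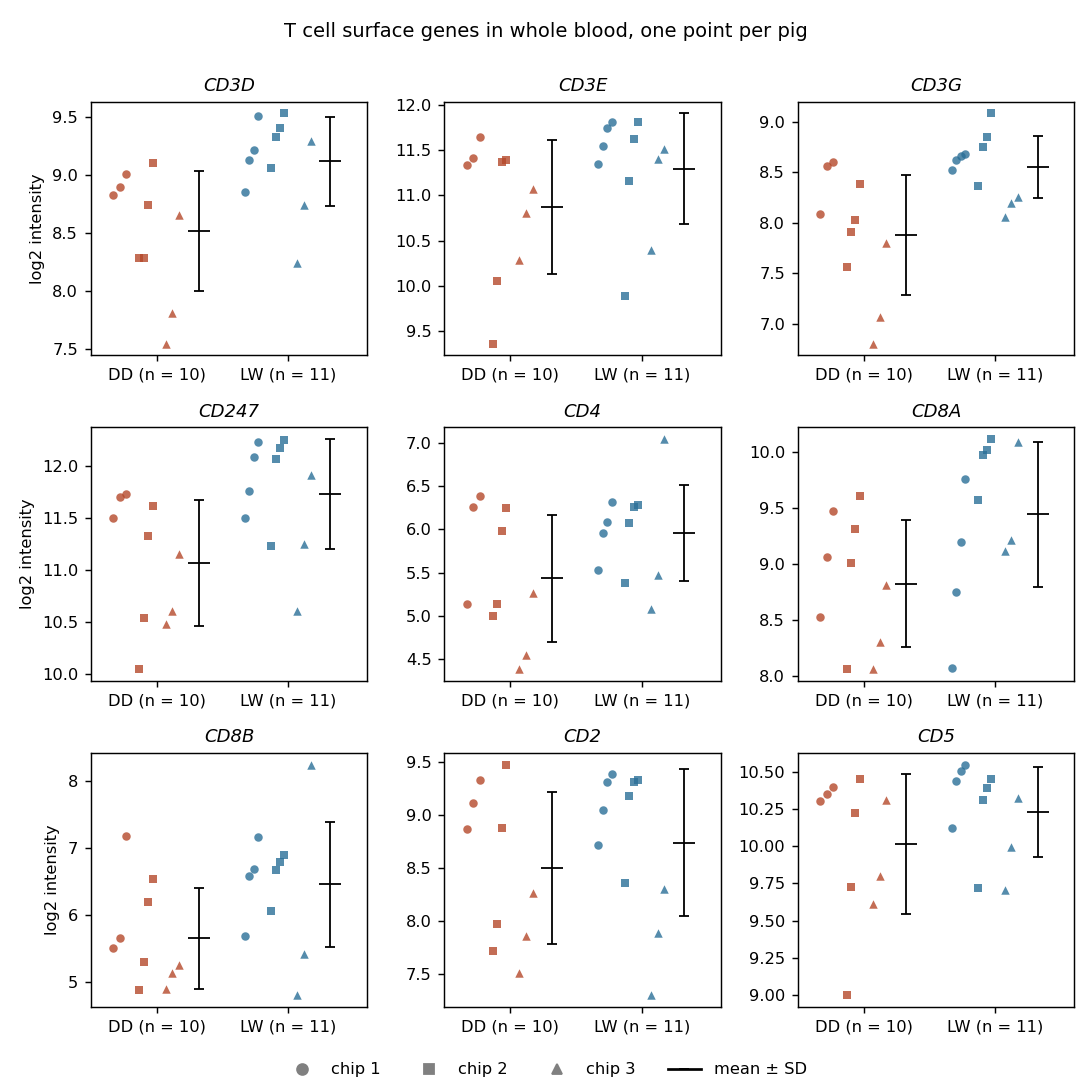
Deposited log2 intensity of the 9 measured genes in each pig, with DD pigs on the left and LW pigs on the right of each panel. Marker shape gives the chip and the black bar the mean ± SD of the breed. Both breeds overlap in each panel, and on chips 2 and 3 several pigs of either breed sit far below the rest of their breed.

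The genes of the CD3 chains lie side by side in the pig genome, with 0 protein-coding genes between CD3E and CD3D or between CD3D and CD3G in the Sscrofa11.1 gene table. CD3D, the delta chain, had values of 7.55, 8.70 and 9.10 (lowest, median and highest) in DD pigs and of 8.24, 9.21 and 9.53 in LW pigs. All 10 DD pigs lay below the LW median, and 7 of the 11 LW pigs lay above every DD pig. The means were 8.52 ± 0.52 (SD, n = 10) and 9.12 ± 0.39 (SD, n = 11), and the level fell by 0.58 on the log2 scale (SE 0.15, adjusted p = 0.0145, limma). This is a 1.50-fold lower level in DD pigs.

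CD3G, the gamma chain, showed the same order with less overlap. Its values were 6.80, 7.96 and 8.60 in DD pigs and 8.06, 8.62 and 9.08 in LW pigs, so that 6 of 10 DD pigs were below every LW pig. The means were 7.88 ± 0.60 and 8.55 ± 0.31, with a log2 FC of −0.64 (SE 0.14, adjusted p = 0.00504). CD3D and CD3G stayed past the threshold with each of the 21 pigs left out in turn, with adjusted p from 0.0029 to 0.0437 for CD3D and from 0.00105 to 0.0182 for CD3G.

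CD3E, the epsilon chain, had a smaller difference and a wider spread. Its values were 9.36, 11.20 and 11.65 in DD pigs and 9.89, 11.52 and 11.82 in LW pigs, and the log2 FC of −0.38 (SE 0.24, 95% confidence interval from −0.89 to 0.13) did not pass the threshold (adjusted p = 0.263). The lowest pig of each breed, DD_16 at 9.36 and LW_15 at 9.89, stood on chip 2, where the next DD pig, DD_13, had 10.06. Both remaining DD pigs of that chip had values above 11. Without DD_16 the log2 FC of CD3E was −0.23 (adjusted p = 0.469).

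The probes show what these values rest on. The end of one CD3D probe is the start of another, and the sequences are shown because these neighbouring probes gave unlike spreads. The capitals mark the 8 bases that end the first and begin the second.
A_72_P504254: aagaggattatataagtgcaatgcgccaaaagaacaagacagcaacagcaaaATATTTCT
A_72_P185936: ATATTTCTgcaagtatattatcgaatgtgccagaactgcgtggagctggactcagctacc
The first of these probes had an SD of 0.32 in DD and 0.28 in LW pigs and a log2 FC of −0.51 (SE 0.13, adjusted p = 0.0193). The second had an SD of 1.12 and 1.00, and its log2 FC of −0.61 had an SE of 0.30 (adjusted p = 0.175). The third CD3D probe, A_72_P014531, was as steady as the first, with an SD of 0.31 and 0.33 and a log2 FC of −0.63 (SE 0.14, adjusted p = 0.00689).

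For CD3G, both probes passed. The brighter one reads
A_72_P088461: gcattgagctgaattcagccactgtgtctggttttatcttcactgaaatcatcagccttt
and went from 9.31 ± 0.86 in DD to 10.21 ± 0.48 in LW pigs, a log2 FC of −0.86 (SE 0.21, adjusted p = 0.0151). The other, A_72_P761021, had a log2 FC of −0.43 (SE 0.11, adjusted p = 0.0186). The CD3E probes A_72_P165731 and O2506 share 51 of their 60 bases, yet they parted on chip 3. In LW_22 the first read 13.20, the highest value of either breed, and the second 9.61, among the lowest of its breed.

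CD247, the zeta chain, is the chain with the most ITAMs and the main docking place for the kinase ZAP70 after phosphorylation by LCK. One of its probes holds a stretch with the codon spacing of such a motif, and is shown for this stretch. Like the other probes, it measures RNA and not the protein. The capitals mark the 45 bases (positions 6 to 50 from the 5′ end) whose codons have the spacing of a whole ITAM.
A_72_P186391: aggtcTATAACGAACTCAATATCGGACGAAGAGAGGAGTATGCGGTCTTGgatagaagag
A stretch of this kind in a frame without a stop codon was found, on the strand of the probe, in 51 of the 60305 probes (0.0846%). The match describes the sequence only.

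CD247 values were 10.04, 11.24 and 11.73 in DD pigs and 10.60, 11.92 and 12.25 in LW pigs. All 10 DD pigs were below the LW median and 7 LW pigs were above every DD pig. The means of 11.07 ± 0.61 and 11.73 ± 0.53 gave a log2 FC of −0.63 (SE 0.20, adjusted p = 0.0301), a 1.55-fold lower level in DD pigs. The adjusted p rose to between 0.0504 and 0.0737 when DD_13, DD_16, DD_21, DD_23, LW_12, LW_14, LW_18 or LW_24 was left out. By probe, A_72_P443441 separated the breeds best. It read 12.65, 13.34 and 13.59 in DD pigs and 13.20, 14.11 and 14.28 in LW pigs, with a log2 FC of −0.77 (SE 0.14, adjusted p = 0.00154), the lowest adjusted p among the 23 probes. The ITAM probe (−0.50, SE 0.21, adjusted p = 0.115) and A_72_P374908 (−0.63, SE 0.33, adjusted p = 0.22) had wider spreads.

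**Figure D2:**
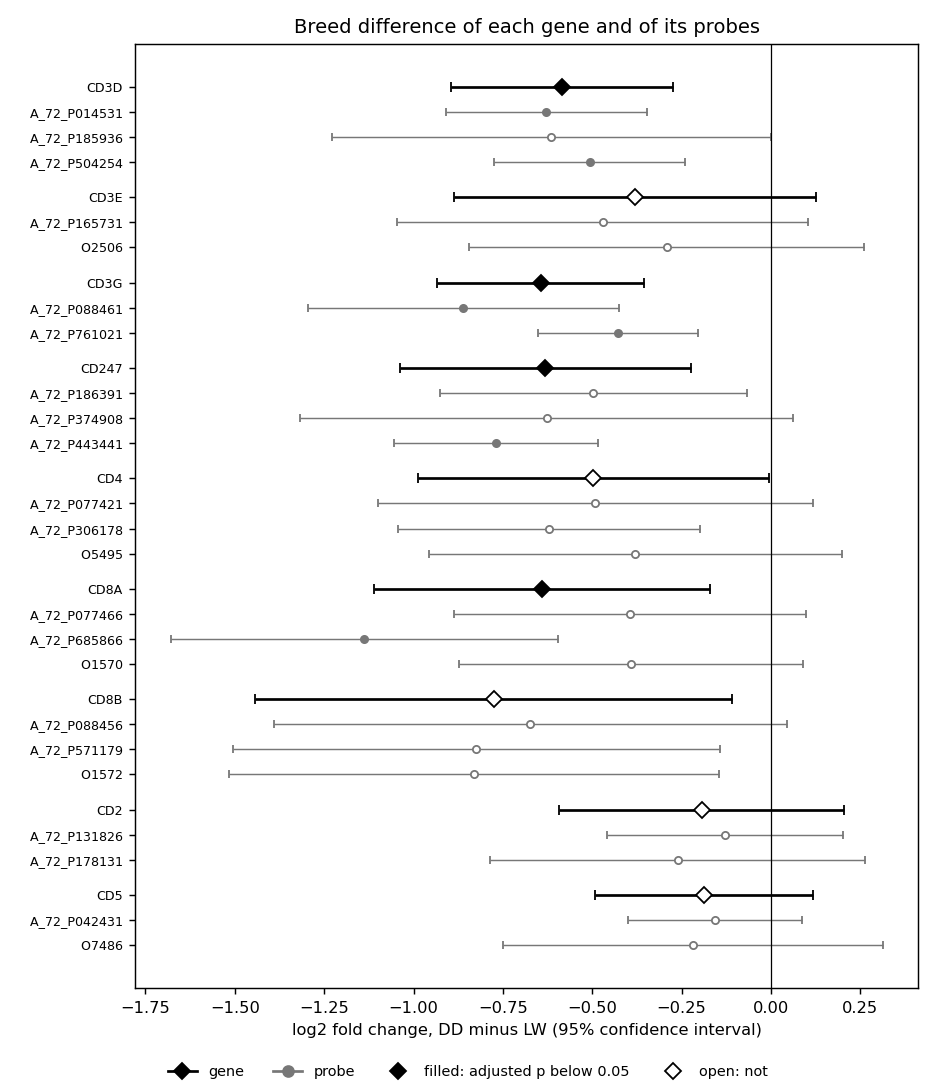
Log2 FC of DD minus LW with its 95% confidence interval for each gene (diamonds) and each of its probes (circles), filled where the adjusted p was below 0.05. All 9 genes and all 23 probes lie left of 0, and 4 genes and 6 probes are filled.

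CD8A and CD8B encode the chains of the CD8 coreceptor, and are next to each other in the Sscrofa11.1 gene table. CD8A, which also forms CD8 by itself as a homodimer, had values of 8.06, 8.91 and 9.61 in DD pigs and of 8.07, 9.57 and 10.12 in LW pigs. In 9 of 10 DD pigs the value was below the LW median, but the lowest LW pig, LW_04, was as low as the lowest DD pigs. The means were 8.82 ± 0.57 and 9.44 ± 0.65, and the log2 FC of −0.64 (SE 0.23) was just past the threshold (adjusted p = 0.0477).

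The CD8A call was not stable. It was kept without DD_06, DD_08, DD_11, LW_04 or LW_07 and was lost without any other of the pigs, with adjusted p from 0.0083 to 0.0964 over the 21 cases. It was also lost with litter means in place of pigs (−0.64, adjusted p = 0.0688) and without the random effect for the sow (−0.64, adjusted p = 0.065). By probe, A_72_P685866 alone passed. It went from 5.52 ± 0.67 in DD to 6.65 ± 0.75 in LW pigs (log2 FC −1.14, SE 0.26, adjusted p = 0.0105), and was well above background on 7 of 10 DD and all 11 LW arrays. The other probes, A_72_P077466 and O1570, have one and the same sequence, and both had a log2 FC of −0.39 (adjusted p = 0.287 and 0.277). When probes of identical sequence were averaged first, the log2 FC of CD8A was −0.77 (adjusted p = 0.0267).

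CD8B, the chain found mainly on cytotoxic T cells, had the lowest log2 FC of the 9 genes without passing. Its values were 4.88, 5.40 and 7.18 in DD pigs and 4.80, 6.66 and 8.25 in LW pigs, and both the lowest and the highest pig were LW pigs (LW_22 and LW_24). The log2 FC was −0.78 (SE 0.32, 95% confidence interval from −1.44 to −0.11, adjusted p = 0.0859). It passed when DD_06, the highest DD pig, was left out (−0.97, adjusted p = 0.0165), and also without DD_11 (−0.89, adjusted p = 0.0464). Without LW_24, the highest LW pig, it shrank to −0.49 (adjusted p = 0.14).

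CD4, the coreceptor of helper T cells, was also dim. The probe that separated the breeds best among its probes reads
A_72_P306178: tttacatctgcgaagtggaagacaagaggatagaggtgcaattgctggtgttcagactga
and was well above background on 4 of 10 DD and 9 of 11 LW arrays. It had a log2 FC of −0.62 (SE 0.20, adjusted p = 0.0514). Over its 3 probes, CD4 values were 4.39, 5.21 and 6.39 in DD pigs and 5.09, 6.08 and 7.05 in LW pigs, with means of 5.44 ± 0.73 and 5.96 ± 0.55. The log2 FC of −0.50 (SE 0.24, 95% confidence interval from −0.99 to −0.0061) did not pass after adjustment (adjusted p = 0.132). Without DD_06 it passed (−0.60, adjusted p = 0.0488), and without LW_24, the highest LW pig, it shrank to −0.31 (adjusted p = 0.246).

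CD2 and CD5 had the smallest differences. CD2 binds CD58 on the partner cell and is also found on natural killer cells. It is shown by one of its probes, since this probe and CD3D A_72_P185936 were low in the same pigs.
A_72_P178131: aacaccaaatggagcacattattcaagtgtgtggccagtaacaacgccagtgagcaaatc
CD2 values were 7.50, 8.56 and 9.48 in DD pigs and 7.30, 9.05 and 9.39 in LW pigs, with the highest pig among the DD and the lowest among the LW pigs. The log2 FC was −0.19 (SE 0.19, 95% confidence interval from −0.59 to 0.20, adjusted p = 0.483), and ran from −0.29 without DD_11 to −0.084 without DD_13 and −0.12 without DD_16.

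CD5, which dampens T cell receptor signalling and is also carried by some B cells, had values of 9.00, 10.26 and 10.45 in DD pigs and of 9.70, 10.32 and 10.55 in LW pigs. The medians differed little and the low DD values came from DD_16 and other pigs of chips 2 and 3. The log2 FC was −0.19 (SE 0.15, 95% confidence interval from −0.49 to 0.12, adjusted p = 0.369), and −0.082 without DD_16. The interval reaches beyond the log2 FC of CD3E, so the missed threshold does not show equal levels. CD5 neighbours CD6, the member without a probe, in the Sscrofa11.1 gene table.

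At the level of single probes, 23 of 23 probes had a log2 FC below 0. Of them 6 passed the threshold in the fit of all 60305 probes, where 5.62% were called lower in DD pigs. These were A_72_P014531 and A_72_P504254 of CD3D, both CD3G probes, A_72_P443441 of CD247 and A_72_P685866 of CD8A. Signal well above background was found on all 10 DD arrays for 14 of the 23 probes and on all 11 LW arrays for 22. The probes with missing DD arrays were mostly those of CD4 and CD8B, besides 1 probe each of CD3D, CD3G and CD8A.

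The difference was not the same size on the 3 chips. The median of the 9 differences of means was −0.15 for the pigs of chip 1, −0.73 for those of chip 2 and −0.75 for those of chip 3. From chip 1 to chip 3, CD3G differed by −0.21, −0.79 and −0.95, CD4 by −0.048, −0.41 and −1.13, and CD8A by 0.077, −0.92 and −1.08. CD247 had its largest difference on chip 2 (−1.05, against −0.24 on chip 1 and −0.51 on chip 3). So had CD3E (−0.58, against −0.15 and −0.39), CD2 (−0.53, against −0.017 and 0.046) and CD5 (−0.37, against −0.053 and −0.10). The DD mean was below the LW mean for all 9 genes on chip 2, and for 8 genes on each of the other chips, where CD8A (chip 1) and CD2 (chip 3) were the exceptions.

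The brightness of the arrays moved with the chips in the same order. Brightness was taken as the 75th percentile of an array's processed signal, on the log2 scale and before arrays were normalized to each other. The DD and LW means of this value were 7.95 and 8.02 for chip 1. They were further apart for chip 2, at 7.55 and 8.31, and furthest for chip 3, at 7.09 and 8.36. With brightness as a covariate, the log2 FC was −0.30 for CD3D (adjusted p = 0.594), −0.36 for CD3G (0.341), −0.39 for CD247 (0.67) and −0.18 for CD8A (0.945). Brightness and breed are partly the same split of the arrays, and what part brightness has in the breed difference was not tested.

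**Figure D3:**
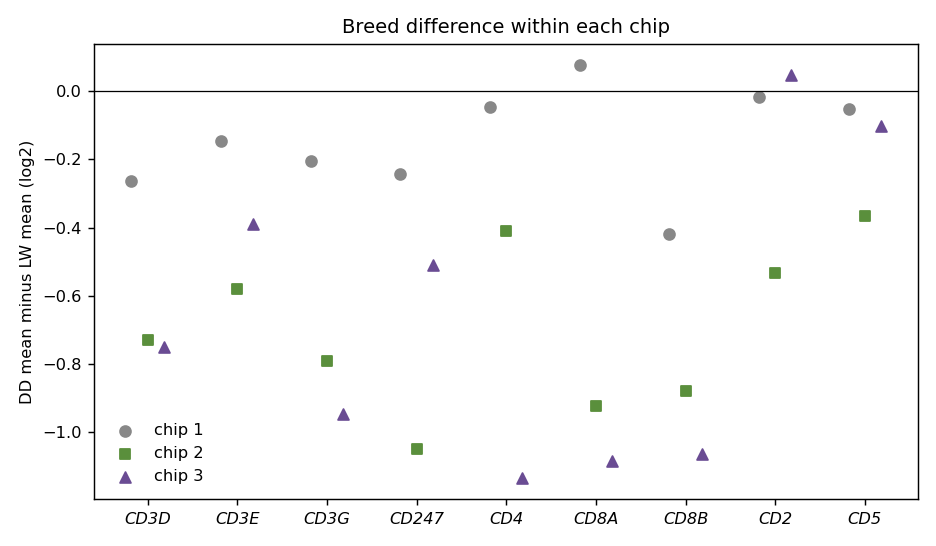
Difference of the DD and LW means (log2) of each gene on chip 1 (circles), chip 2 (squares) and chip 3 (triangles). The chip 1 points lie between −0.42 and 0.077, closer to 0 than those of chip 2 for each gene.

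Several pigs stood apart through the probes of one gene. The log2 value of the CD247 probe A_72_P374908 minus that of A_72_P443441 lay between −1.78 and −1.34 on 12 arrays and between −4.67 and −2.23 on the other 9. These 9 arrays, taken as those below a limit of −2 that was set after the values were seen, were DD_13, DD_16, DD_19, DD_21, DD_23, LW_15, LW_18, LW_22 and LW_24. They hold 5 DD and 4 LW pigs, and none of chip 1, 3 of chip 2 and all 6 of chip 3.

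Probes of 5 other genes were compared in the same manner on each array, with a single pair of probes per gene. These pairs were not among the planned comparisons, and probes of CD4, CD8A and CD8B were not compared in this manner. For CD3D, A_72_P185936 minus A_72_P014531 ran from −4.57 to −3.74 on the 12 arrays and from −7.17 to −4.95 on the 9, with no overlap. For CD5, O7486 minus A_72_P042431 ran from −3.18 to −2.38 and from −4.79 to −3.05. For CD2, A_72_P178131 minus A_72_P131826 ran from 0.66 to 1.15 and from −0.65 to 0.62. Over the 21 arrays, the difference in CD247 had a Pearson r of 0.938 with that in CD3D, 0.953 with that in CD5 and 0.866 with that in CD2, given as a description of arrays that share their chip and normalization. In CD3E, O2506 minus A_72_P165731, the overlapping probes, ran from −0.45 to −0.14 on the 12 arrays and from −3.59 to −0.29 on the 9. In CD3G, A_72_P088461 minus A_72_P761021 ran from 2.86 to 3.79 on the 12 arrays and from 1.66 to 3.16 on the 9, with the lowest r of the 5 genes with the difference in CD247 (0.486, against 0.702 for CD3E). The difference in CD247 had a median of −1.92 in DD and −1.76 in LW pigs, with a range from −4.24 to −1.34 and from −4.67 to −1.41.

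**Figure D4:**
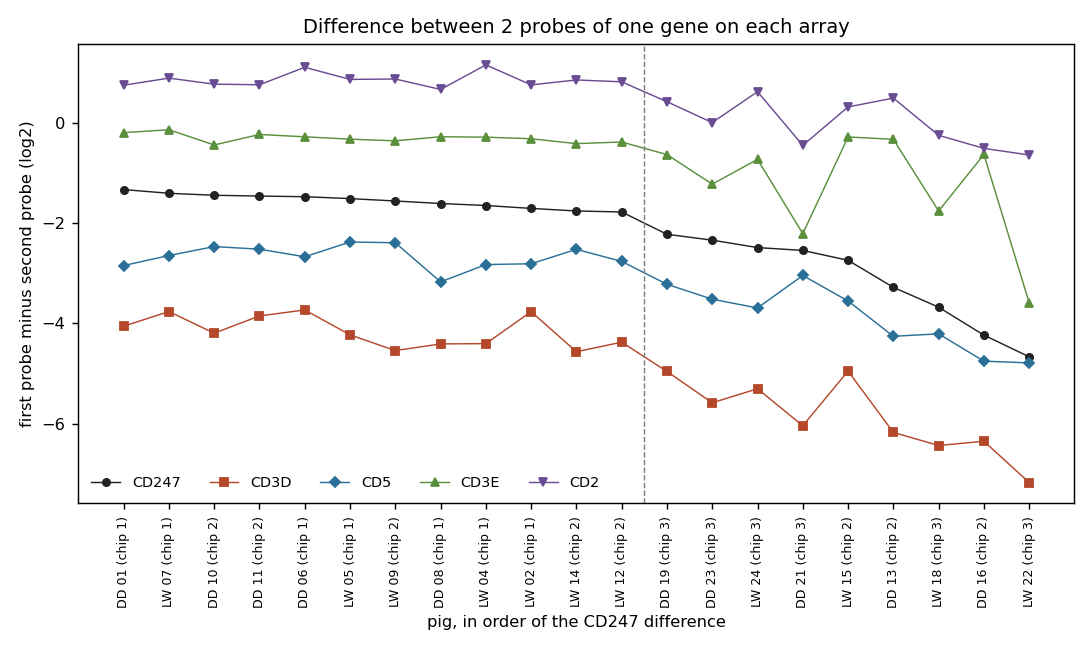
Difference between a pair of probes of one gene on each array (first minus second probe, log2), with the pigs in order of the CD247 difference and the chip in brackets. Right of the dashed line stand the 9 arrays on which the CD247 probes differ by more than 2, and the lines of CD3D, CD5 and CD2 go down there too, in pigs of both breeds.

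The means of the members were lower on these 9 arrays in both breeds, with CD8A as an exception. No test was made, since a member chose the arrays, and a CD247 probe used for the choice is part of the CD247 mean. The chip effect was not removed from these means. The 9 arrays hold all of chip 3 and none of chip 1, so the split is mixed with the chip. For CD2, the mean of the 9 arrays minus that of the other arrays was −1.27 in DD and −1.22 in LW pigs, and for CD3E it was −1.12 and −0.78. For CD8A it was −0.25 in DD pigs but 0.30 in LW pigs. Among the 5 DD and 7 LW pigs of the other arrays CD3G was 8.33 ± 0.26 in DD and 8.74 ± 0.18 in LW pigs, and CD247 11.57 ± 0.17 and 12.01 ± 0.28, a narrower spread than over all pigs. CD8A had a wider one, at 8.95 ± 0.65 and 9.33 ± 0.72. In these 12 pigs the 9 log2 FC were below 0 but smaller than over all pigs, at −0.37 for CD3D, −0.39 for CD3G, −0.42 for CD247, −0.38 for CD8A and −0.46 for CD8B. Those of CD3E (−0.15), CD2 (−0.068), CD5 (−0.048) and CD4 (−0.046) came closest to 0. The limma fit called 0 of the 9 genes there and 0.921% of all gene names (3 of the 9 and 11.8% at an unadjusted p below 0.05). With all 21 arrays and the split into 9 and 12 as a covariate, it called 4 of the 9 and 23.3% of all gene names. The part of this split in the breed difference beyond these values was not tested.

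Whether one member differed more than another was asked within each array, where a shift common to all probes of the array cancels. Array effects that differ between probes do not cancel. The breed labels were permuted over all 462 divisions of the 11 litters, with a smallest possible p of 0.00216 and adjustment over 4 comparisons. The intervals are not from the permutation. They come from an ordinary linear model of breed and chip that takes pigs, siblings included, as independent. CD8B minus CD8A differed between breeds by −0.14 (95% confidence interval from −0.85 to 0.57, adjusted p = 0.66, two-sided exact permutation). CD4 minus CD8B, a helper against a cytotoxic coreceptor, differed by 0.28 (from −0.18 to 0.75, adjusted p = 0.385, exact permutation). CD2 minus CD3E differed by 0.19 (from −0.25 to 0.62, adjusted p = 0.58, exact permutation). CD247 minus CD3E differed by −0.25 (from −0.65 to 0.16, adjusted p = 0.385, exact permutation). None of these 4 differences passed, and each interval still holds, in one direction, a difference as large as the log2 FC of CD3D. With brightness as a covariate the 4 differences were, in this order, −0.36, 0.43, 0.12 and −0.25, and none passed. With single pigs left out, the first ran from −0.31 without DD_10 to 0.030 without LW_24, the second went down to 0.15 without DD_08, the third to 0.069 without LW_22, and the fourth reached −0.37 without LW_22.

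Of 8 members compared with CD3E among pigs, 4 passed for Pearson's r and 3 for Spearman's rho. The share of all gene names that would pass the same test was not computed. With breed and chip effects removed and pigs averaged by litter (11 litters), Pearson's r with CD3E was 0.907 for CD5 (rho 0.955, permutation adjusted p = 0.0044 for r), 0.878 for CD247 (rho 0.855, 0.00469) and 0.797 for CD4 (rho 0.745, 0.00469). It was 0.697 for CD2 (rho 0.636, permutation adjusted p = 0.0316), which passed for r and not for rho (permutation adjusted p = 0.0809). CD3G (r 0.612, rho 0.545), CD8B (r 0.60, rho 0.573) and CD3D (r 0.561, rho 0.545) had adjusted p of 0.0606, 0.0606 and 0.0875 for r in the same permutation test over 8 relations. CD8A had the lowest r, 0.136, with a rho of 0.109 (permutation adjusted p = 0.68). Without the 2 litters farthest from the median of CD3E, r was 0.859 for CD5, 0.862 for CD247, 0.807 for CD4, 0.757 for CD2 and 0.132 for CD8A.

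None of these relations passed without the arrays that stand apart. Over the 9 litters with pigs among the other 12 arrays, r with CD3E was 0.429 for CD5, 0.248 for CD247, 0.352 for CD4 and 0.523 for CD2. That of CD8A was 0.473, the second highest, and none of the 8 relations passed (smallest permutation adjusted p = 0.526). The arrays were left out by the probes of a member, and fewer litters remained. The SD of CD3E was 0.12 in DD and 0.25 in LW pigs there, against 0.74 and 0.61 over all pigs. With this narrower spread, the missed threshold cannot show where the relations come from. Over all 33326 gene names and 21 arrays, the features most like the mean of CD3D, CD3E and CD3G after removal of breed and chip effects were SFRS2 (r 0.943), a splicing factor, P2RY10 (0.932), a receptor of the P2Y family, the transcript described as importin beta 1 (0.931), a feature described as ribosomal protein S3-A (0.931), and RPL4 (0.924), another ribosomal protein. None of these 5 passed the threshold between breeds, with log2 FC from −0.42 to −0.23. The members themselves had r from 0.376 (CD8A) and 0.636 (CD8B) up to 0.874 (CD3E) with that mean, of which the CD3 genes are a part. By this r, CD3E ranked 85, CD247 154, CD5 373, CD2 429, CD4 574 and CD8A 5529 among the 33326 gene names. Many gene names other than the members thus followed that mean as closely.

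Of 36 companions of these genes in the T cell, such as kinases, adaptors, costimulatory receptors and transcription factors, 27 were tested. The log2 FC was below 0 for 24 and above 0 for 3, with a median of −0.19, and 5 were called lower and 0 higher, against 54.9% below 0 and 9.63% called lower over all gene names. LCP2, the adaptor SLP-76 downstream of ZAP70, was 11.18 ± 0.13 in DD and 12.15 ± 0.60 in LW pigs (log2 FC −1.01, SE 0.16, adjusted p = 0.000249). GATA3, a transcription factor of T cell development and T helper 2 cells, had a log2 FC of −0.75 (adjusted p = 0.0129), and BCL11B, a transcription factor of T cell commitment, one of −0.51 (adjusted p = 0.0249). PTPRC, which encodes the phosphatase CD45 of all leukocytes, had a log2 FC of −0.43 (adjusted p = 0.0225), and ETS1, a lymphoid transcription factor, one of −0.38 (adjusted p = 0.0294). LCK, the kinase bound to CD4 and CD8, was 10.16 ± 0.42 and 10.27 ± 0.39 (log2 FC −0.080, adjusted p = 0.701).

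Markers of other blood cells gave a mixed picture. HBB, the beta globin of red cells, had a log2 value of 17.61 ± 0.45 in DD and 17.35 ± 0.82 in LW pigs. Of 6 erythroid markers tested, 4 had a log2 FC above 0 and 3 were called higher in DD pigs (11.5% over all gene names), EPB42 (log2 FC 1.06), CA1 (1.02) and ALAS2 (0.75). The log2 FC was −0.27 for AHSP and −0.047 for SLC4A1, and the mean level of the list ranged from 12.05 to 13.29 in DD and from 11.68 to 13.13 in LW pigs. All 6 B cell markers tested had a log2 FC above 0 and 0 were called (smallest adjusted p = 0.279), with list means from 8.44 to 9.53 and from 7.98 to 9.68. Of 7 natural killer and cytotoxic markers 5 had a log2 FC below 0 and 0 were called, with list means from 8.35 to 9.98 and from 8.14 to 9.95. Of 6 monocyte markers 4 had a log2 FC above 0, among them FCGR1A (0.73, adjusted p = 0.124) and CSF1R (0.63, adjusted p = 0.0505), and 1, CD163, was called lower (−0.72). Of 6 neutrophil markers 4 had a log2 FC above 0 and 0 were called. Of 5 platelet markers 4 had a log2 FC below 0 and 1, PPBP (−0.94), was called lower, as was 1 of 4 gamma delta T cell markers, which was GATA3 again. The list means of these lists overlapped between the breeds, and their part in the differences of the T cell genes was not tested.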

How the data were processed

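Whole blood RNA of 21 pigs (10 DD, 11 LW) was measured on a one-colour Agilent array. The authors processed 24 animals and left out 3 arrays as outliers. They also found a technical bias on the third chip, which their linear model handled as a chip effect. The scanner files hold the intensity of each spot and of its local background as deposited, read with Agilent Feature Extraction 10.7.3.1 per the labels, with a flag for signal well above background, another unit that the authors' software set. The deposited log2 values were made by the authors through normexp background correction, log2 scaling and quantile normalization of these arrays.

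From the deposited matrix, the 25% of probes with the lowest mean were removed and the probes of one gene name were averaged. Breeds were compared in limma 3.58.1 (R 4.3.3, statmod 1.5.0) in a model of breed and chip with a random effect for the sow (duplicateCorrelation), and with Benjamini-Hochberg adjustment over 33326 gene names. The consensus correlation of siblings was −0.108. With the block 4 members and 21.1% of all gene names passed, and without it 3 members and 14.5%, CD8A being the member lost. The SE of CD8A was 0.226 with the block and 0.235 without it. A second fit took each of the 60305 probes by itself. Values re-computed from the scanner intensity had r from 0.998 to 0.999 with the deposited ones. Within-array differences used an exact permutation of litters for p and an ordinary linear model of breed and chip, without litters, for the intervals. Relations with CD3E used 100000 permutations. Python 3.11.15 with pandas 2.3.3, scipy 1.17.1 and matplotlib 3.10.9 served for relations and plots. The limma fit and the permutation test of the relations were also run on simulated data. In the simulation for limma siblings were made alike, unlike the correlation of −0.108 found here.

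The genes named are the 10 members, the companions past the threshold, and the 5 features most like the CD3 mean. LCK and the named markers of other lists were added after their values were seen. The members and lists were chosen with earlier results of these data known. Probe sequences are those of the scanner files, and gene neighbours come from NCBI RefSeq on Sscrofa11.1. Pigs are separate animals, siblings share a litter, and precision is limited by how many arrays there are.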

Additional observations from a re-analysis of the deposited data

Results flagged for a closer look

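In the 10 DD pigs, with the chip effect removed, DD_16 was far below the others in CD5. Its value was 9.08, the next DD pig had 9.77 and the highest 10.54, so that the gap was 0.472 of the whole range against a limit of 0.466. CD5 was 1 of 9 genes looked at in this manner, and chance alone puts about 1 in 20 such groups past the limit. Only DD pigs were looked at. Among the LW pigs, also with the chip effect removed, LW_24 stood above the next pig in CD4 (7.42 against 6.16) and in CD8B (8.65 against 6.90). DD_16 is also 1 of the 9 arrays on which the probes of CD247 were far apart. Without DD_16 the log2 FC of CD5 was −0.082 (adjusted p = 0.666, limma).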

How the results depend on the processing

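All 9 log2 FC were below 0 under each of the planned and added settings and with each pig left out, but the number of members called, 4 in the report, went down in several. It was 2 with the processed signal scaled to the 75th percentile, 2 with cyclic loess and 2 with no filter on low probes, 1 without the chip term and 1 without chip 2, and 0 without chip 3, 0 with array brightness as a covariate and 0 without the 9 arrays with a wide CD247 probe difference (a setting chosen after seeing the data, as were identical sequences averaged first, gene names in exact case, the probe described as CD5 antigen and the probe difference as a covariate, each of which called 4). The share of all gene names called changed too. It was 21.1% in the report, 20.7% with the scaling, 19.9% with cyclic loess and 9.54% with no filter. It was 5.57% without the chip term, 14.5% without chip 2, 1.52% without chip 3, 2.14% with brightness and 0.921% without the 9 arrays. With each pig left out in turn the number of members called ran from 2 to 6. It was 2 without DD_13, DD_16, DD_21, DD_23, LW_12, LW_14, LW_18 or LW_24 and 6 without DD_06. The share of all gene names ran from 6.37% without LW_18 to 33.2% without DD_06. The cause was not tested. Fewer arrays enter where a chip or the 9 arrays are left out.

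CD8B minus CD8A (−0.14) turned to 0.034 without chip 1 and to 0.030 without LW_24, and ran from −0.31 to 0.030 with each pig left out. The other within-array differences kept their direction and passed in no setting. The number of gene names called, 7030 in the report, was 4348 with no filter, 1857 without the chip term, 507 without chip 3, 713 with brightness and 307 without the 9 arrays, and ran from 2122 (without LW_18) to 11059 (without DD_06) with each pig left out. Of those called, 3821 were higher and 3209 lower in DD pigs, against 4770 and 2112 with the scaling to the 75th percentile and 4506 and 2120 with cyclic loess. That scaling also moved the median log2 FC of all gene names from −0.043 to 0.062. Adding probes by RefSeq accession brought in 0 probes, so that this setting gave no value, and CD6 minus CD5 could not be computed. No paired analysis was possible because the pig numbers of the labels are not shared between the breeds. Dim probes limit CD4 and CD8B most, since their probes were not well above background on all DD arrays.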
